A study of Danio rerio with 21 samples.

Results

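The 10 genes itga2b, itgb3b, mpl, thbs1b, gp1bb, gp9, f13a1b, fn1b, f5 and sele, of 27758 measured features, encode surface receptors, adhesion ligands and clotting factors of thrombocytes. They were chosen by symbol, and each symbol stood on 1 feature in all 21 libraries. Thrombocytes are the nucleated clotting cells of fish and the counterparts of mammalian platelets. They bind to exposed vessel wall and to each other through receptors for von Willebrand factor and fibrinogen, release stored adhesive proteins, and offer a surface on which clotting factors assemble. Thrombopoietin, acting through its receptor, drives their production from blood stem and progenitor cells (HSPCs), and in zebrafish the itga2b promoter is in common use to mark both cell types.

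Zebrafish HSPCs had been given a lasting mCherry label, and transcripts were counted in sorted single cells that carried it. The early label was set 1 day post fertilization (dpf), the mid label at 2 dpf and the late label at 3 dpf. The larval set held 9 libraries of whole larvae: the early label at 2, 6 and 10 dpf, the mid label at 3, 6 and 10 dpf, and the late label at 4, 6 and 10 dpf. The crispant set held 4 libraries from larvae labelled at 1 dpf and collected at 8 dpf. These were mosaic mutants of slc24a5, a pigmentation gene that served as the control, and of rag1, which is needed to join antigen receptor genes, each untreated or given 25 µM R848 (resiquimod, a Toll-like receptor agonist) at 6 dpf. The adult set held 8 libraries at 4 months, with both the early and late labels in kidney marrow, intestine, thymus and the tessellated lymphoid network (TLN). Every group was 1 library. No spread between replicates could therefore be measured, no test was run, and all intervals given are 95% intervals of counting error alone.

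Libraries held 782 to 28990 barcodes and 8303823 to 150042529 unique molecular identifiers (UMIs, 1 per captured transcript). Over the 210 pairs of libraries, the highest number of shared cell barcodes was 203, which was 0.809% of the smaller library, and the median was 0. The highest share of the smaller library was 0.977%, in a pair with 79 shared barcodes. Cells were clustered without the 10 genes and named from marker lists that did not hold them, so that the levels below did not enter the naming. This gave 3008 thrombocyte-like cells, from 2 to 348 per library, with at least 50 in 15 libraries. Of the 18 thrombocyte markers with a feature, fermt3b (an integrin activator) lay between 1004 and 2636 CPM (UMIs of a gene per 1000000 UMIs of its class) in these 15 libraries and nfe2 (a transcription factor of the lineage) between 112 and 334 CPM. The ADP receptor p2ry1 was at 0 in all 15 and p2ry12 and vwf did not pass 2.48 CPM, so these defining platelet genes did not mark the cells here. Of the other markers, plek and hbegfb were at or above 643 CPM, while cd9b and alox12 did not pass 19.4 CPM. The marker rasgrp2 went the other way. It was lower than in cells named HSPC-like in each library with at least 50 of both, such as 11.6 against 137 CPM in the mid label at 3 dpf. Other markers, among them cd9b, tbxas1 and rgs18, were lower in some of these libraries and higher in others. For cd9b the levels were 0 against 17.3 CPM in the early label at 6 dpf and 6.26 against 4.52 CPM in late-labelled kidney marrow. For tbxas1 they were 8.27 against 22.6 CPM (mid label, 3 dpf) and 28.9 against 13.4 CPM (early label, 10 dpf). One larval cluster of 575 cells carried HSPC and thrombocyte markers together and was kept apart as a joint class.

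All 10 genes were far higher in thrombocyte-like than in HSPC-like cells, in each of the 14 libraries with at least 50 cells of both. The count of 10 of 10 at 2-fold or more stands beside 17.2% of the 11338 features tested. These genes were chosen as thrombocyte genes with earlier results of these data known, so the count is a description and gives no support to the cell names. Ratios are given as log2 of (CPM + 5), with UMIs summed over the cells of a class in a library. The median log2 ratio over the 10 genes was 6.05, against 0.19 over all features tested.

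The fibrinogen receptor is an integrin of the subunits encoded by itga2b (integrin alpha IIb, CD41) and itgb3b (integrin beta 3). Across the 15 libraries itga2b stood between 334 CPM (early label, kidney marrow) and 3079 CPM (late label, thymus), with a median of 1313 CPM. In HSPC-like cells it was at or under 1.99 CPM in all 17 libraries with at least 50 of them. Pooled over the 14 libraries it was 1111 CPM in thrombocyte-like cells and 0.979 CPM (0.823 to 1.16) in HSPC-like cells. Its log2 ratio was 7.74 in the median library, from 5.75 to 8.29. The itga2b transcript was therefore high in cells named thrombocyte-like and near 0 in cells named HSPC-like, from which the joint class was kept apart. In the early label the summed HSPC markers were themselves higher in thrombocyte-like than in HSPC-like cells. They were 3573 against 592 CPM at 6 dpf and 3647 against 442 CPM at 10 dpf. The same HSPC-like cells held thrombocyte markers (18 features) at 871.5 and 674.7 CPM, above their HSPC markers (9 features). In larval libraries with at least 50 thrombocyte-like cells, HSPC markers in those cells were 2720 to 4759 CPM. In crispant thrombocyte-like cells they were 2352 to 2607 CPM. The contrast in itga2b therefore holds for the classes as named here. In cells thinned to 1000 UMIs, 59.1% to 74.0% of larval thrombocyte-like cells had an itga2b UMI, and none of the T-lineage-like cells, which should lack the gene, had one. Unthinned, those shares were 80.2% to 95.3% at median depths of 1420 to 3866 UMIs, and 0.133% to 0.985% at 7336 to 9226 UMIs.

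The beta subunit was less restricted. The level of itgb3b lay between 175 and 1507 CPM in thrombocyte-like cells, with a median of 1236 CPM, and was 17.7 CPM pooled in HSPC-like cells. Its median log2 ratio was 5.52. Of all larval itgb3b UMIs, 53.6% lay in thrombocyte-like, 17.9% in joint and 17.8% in HSPC-like cells, whereas 74.2% of itga2b UMIs lay in thrombocyte-like and 23.6% in joint cells. Its near copy itgb3a stood at 18.6 CPM in larval thrombocyte-like cells.

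The thrombopoietin receptor gene mpl had a median of 1534 CPM in thrombocyte-like cells, from 399 CPM (early label, kidney marrow) to 1882 CPM (mid label, 3 dpf). Among HSPC-like cells it ranged from 11.1 CPM (late label, 10 dpf) to 78.6 CPM (untreated rag1 crispants), and its pooled value of 33.6 CPM was 40.1-fold under that of thrombocyte-like cells. Adult kidney marrow HSPC-like cells held 40.2% of the mpl UMIs of that tissue and thrombocyte-like cells 40.1%. Outside both classes, an unnamed crispant cluster of 1042 cells led by eomesa stood at 87.6 CPM and an unnamed thymus cluster of 51 cells led by nkl.4 at 161 CPM. Reads of mpl and of orc1, which overlaps it in the RefSeq annotation of GRCz12tu, may not be fully separable. The level of orc1 was 11.01 CPM in larval thrombocyte-like cells, and its part in the mpl level was not tested.

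**Figure D1:**
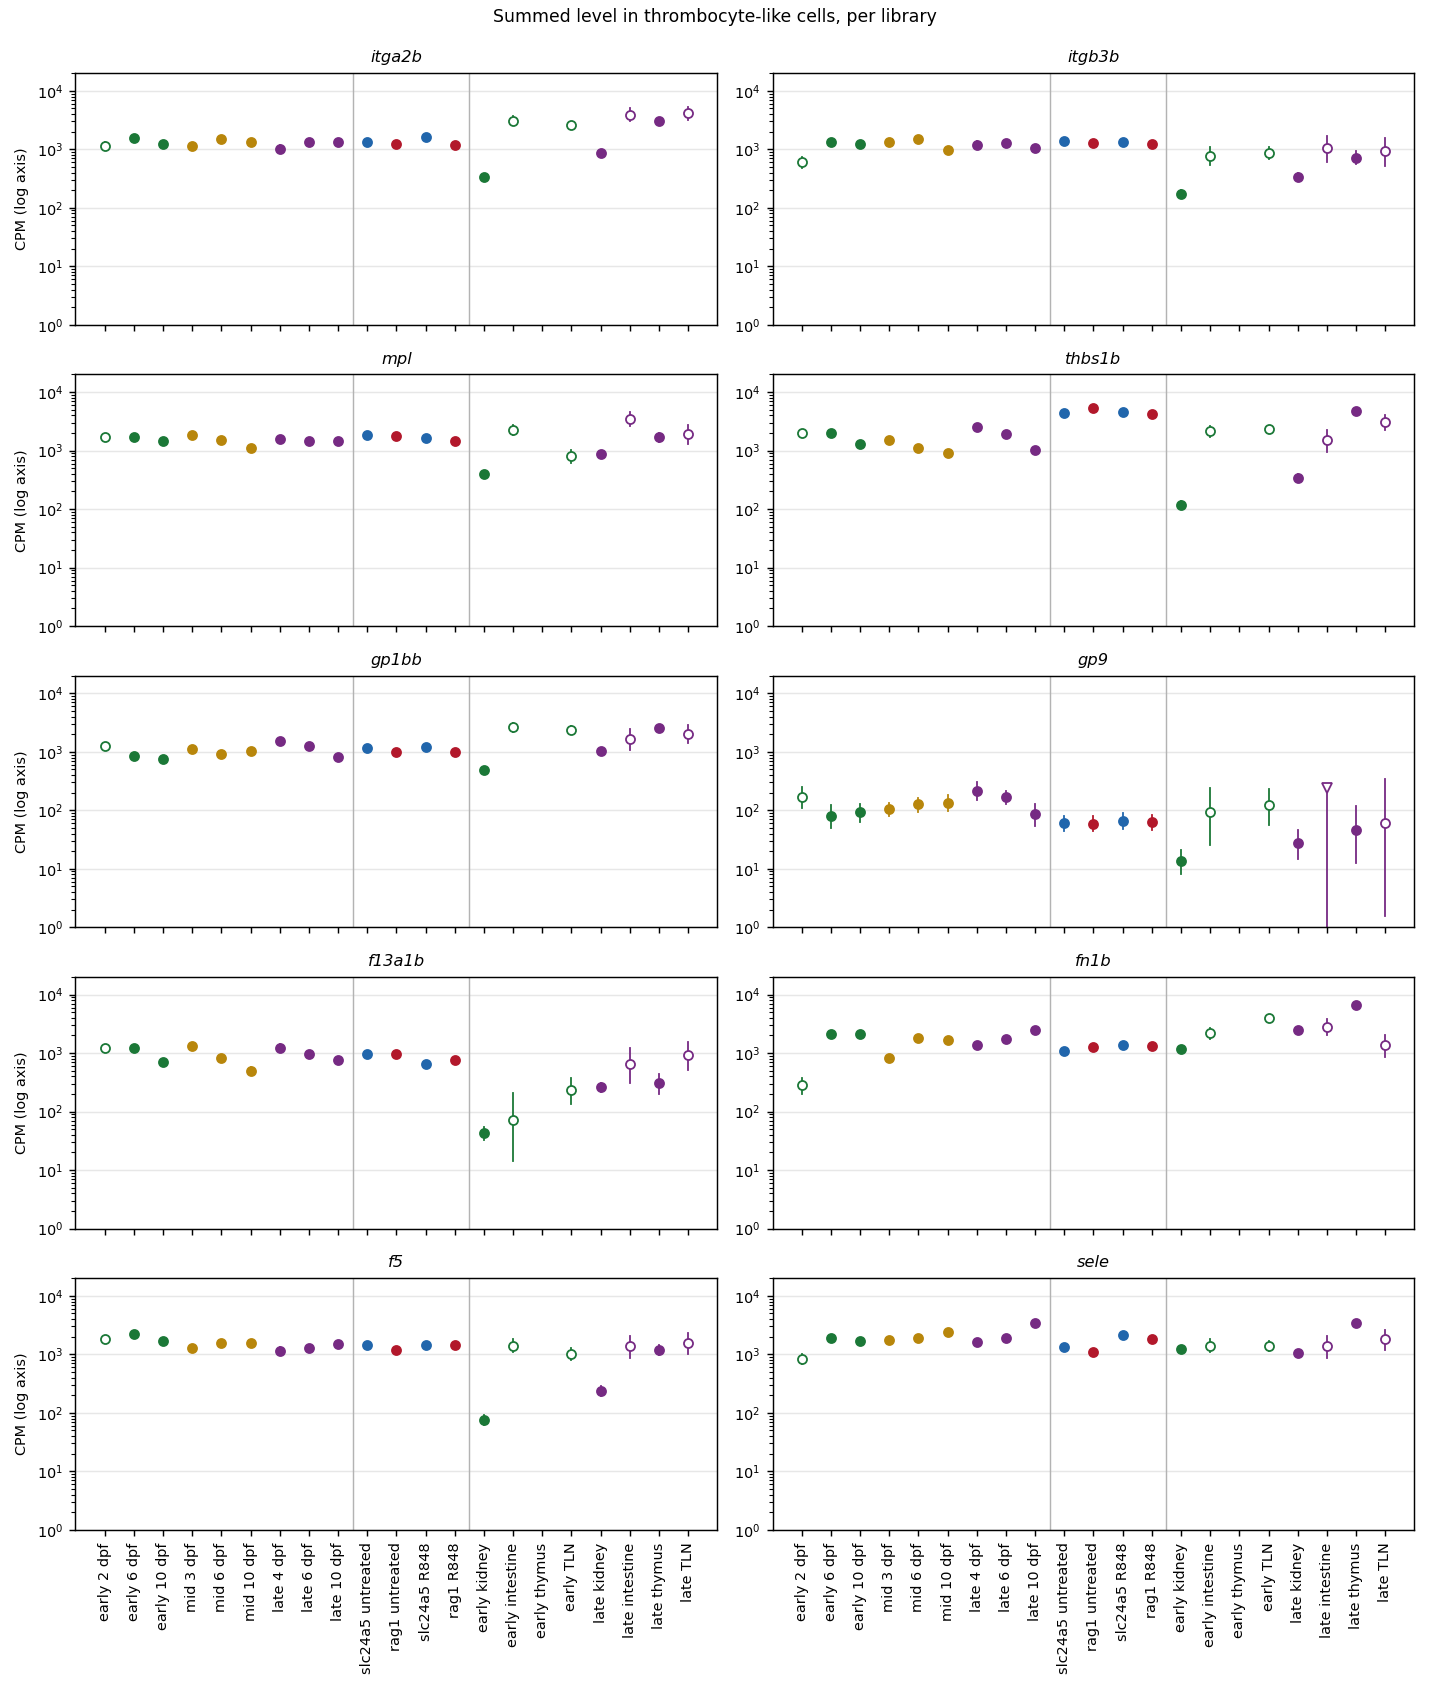
Level of each gene in thrombocyte-like cells (CPM, log axis) in each library with at least 5 such cells. Filled points rest on at least 50 cells and open points on fewer; vertical lines are exact Poisson 95% intervals, a triangle is the upper bound where no UMI was counted, green, gold and purple are the early, mid and late label, and blue and red are slc24a5 and rag1 crispants. The kidney marrow libraries stand under the larval ones for itga2b, itgb3b, mpl, thbs1b, f13a1b and f5.

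Both measured subunits of the von Willebrand factor receptor complex, gp1bb (glycoprotein Ib beta) and gp9 (glycoprotein IX), were present in thrombocyte-like cells and also in erythroid-like cells. In thrombocyte-like cells gp1bb ranged from 490.2 to 2542 CPM with a median of 1037 CPM, and gp9 from 13.6 to 215 CPM with a median of 80.2 CPM. In the 16 libraries with at least 50 erythroid-like cells, gp1bb ranged from 51.9 to 637 CPM and gp9 from 27.6 to 589 CPM. The median erythroid-like level of gp9, 123 CPM, was thus above its median in thrombocyte-like cells, while that of gp1bb, 85.5 CPM, was below it. Over the same erythroid-like libraries itga2b did not pass 1.23 CPM and mpl did not pass 1.53 CPM.

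In these sets most gp9 transcripts lay in the erythroid-like class. It held 89.6% of gp9 UMIs in the larval set, 91.7% in the crispants, 81.9% in kidney marrow and 96.2% in the TLN. For gp1bb the shares were 42.0%, 62.3%, 64.3% and 96.7%. In the intestine and thymus erythroid-like cells held 19.8% and 30.3% of gp1bb UMIs, and thrombocyte-like cells 76.8% and 66.7%. At 1000 UMIs per cell, 8.82% to 31.4% of larval erythroid-like cells had a gp9 UMI against 8.76% to 22.8% of larval thrombocyte-like cells and 0% of T-lineage-like cells. Unthinned, the shares were 37.4% to 66.4% of erythroid-like cells (median depths 2118 to 16170 UMIs), 13.2% to 31.2% of thrombocyte-like cells and at most 0.133% of T-lineage-like cells.

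The ratio of gp9 to gp1bb UMIs separated the classes. It was taken in classes with at least 50 cells of 1000 UMIs or more. It was between 0.0265 (late label, kidney marrow) and 0.145 (late label, 4 dpf) in thrombocyte-like cells, and between 0.870 and 2.15 in larval erythroid-like cells. The late thymus, with 46 such thrombocyte-like cells, was left out and had 4 gp9 and 218 gp1bb UMIs over all 67 of its thrombocyte-like cells. Crispant erythroid-like cells had ratios of 1.25 to 1.42 and those of kidney marrow 0.312 and 0.369. In the TLN the erythroid-like ratio was 0.604 after the early and 0.348 after the late label. A single cell rarely showed both genes at 1000 UMIs: 12.3% or fewer of thrombocyte-like cells did, and 16% or fewer of erythroid-like cells.

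Haemoglobin transcripts were also present in most thrombocyte-like sums, and their part in gp9 was not tested. The late label at 4 dpf, with the highest gp9 of the 15 libraries (215 CPM), had haemoglobin at 2342 CPM. In the late label at 10 dpf haemoglobin was 93.0 CPM and gp9 85.2 CPM, and in the late thymus haemoglobin was 0 and gp9 46.6 CPM on 4 UMIs. In the TLN, T-lineage-like cells also had a gp1bb UMI in 1.60% to 4.24% and a gp9 UMI in 0.532% to 2.83% of cells at 1000 UMIs, against 44.2% to 50.4% and 22.03% to 32.7% of erythroid-like cells. Unthinned, the T-lineage-like shares were 19.5% to 26.1% and 6.15% to 15.1% at median depths of 6905 to 9825 UMIs, and the erythroid-like shares 60.8% to 63.4% and 30.3% to 48.2% at 1104 to 1283 UMIs. The source of these UMIs in T-lineage-like cells was not tested. In the RefSeq annotation of GRCz12tu gp9 lies within zgc:113278 and gp1bb within myl2b. The enclosing genes were at 4.13 and 1.38 CPM in larval thrombocyte-like cells.

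**Figure D2:**
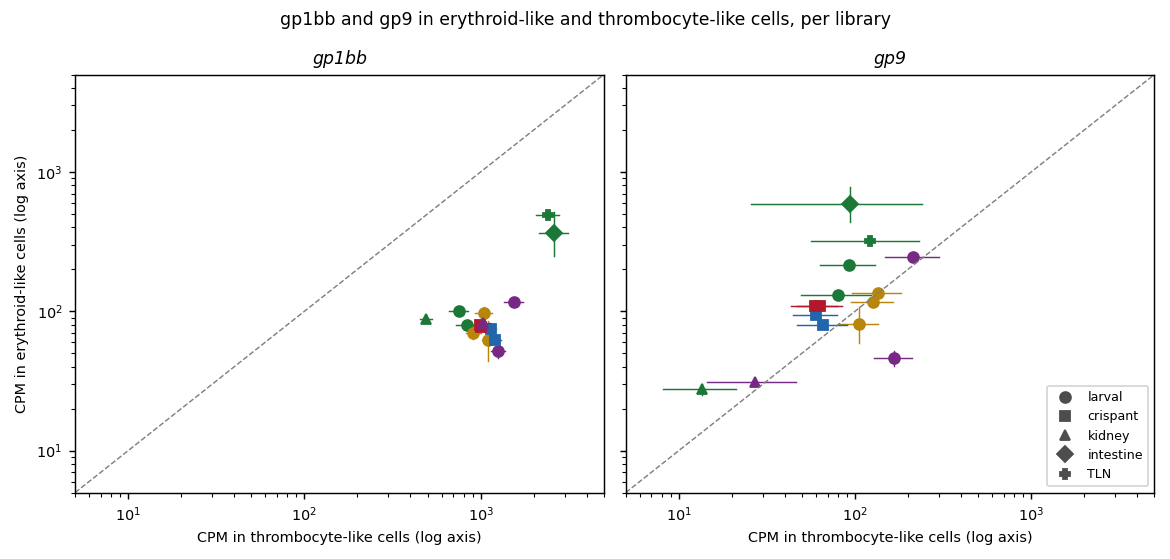
Level of gp1bb (left) and gp9 (right) in erythroid-like (vertical, CPM, log axis) against thrombocyte-like cells (horizontal, CPM, log axis), 1 point per library with at least 20 cells of each; lines are Poisson 95% intervals, the dashed line is equality, shapes are the sets, and green, gold, purple, blue and red are early, mid and late label, slc24a5 and rag1 crispants. All gp1bb points lie under the dashed line, and the gp9 points lie above it in 12 of 15 libraries.

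The adhesive ligands were thbs1b (thrombospondin 1, a granule and matrix glycoprotein) and fn1b (a fibronectin). The level of thbs1b varied more between libraries than that of any other of the 10 genes: in thrombocyte-like cells it ran from 118 CPM (early label, kidney marrow) to 5299 CPM (untreated rag1 crispants), with a median of 1903 CPM. The 4 crispant libraries stood at 4400, 5299, 4501 and 4246 CPM (slc24a5 untreated, rag1 untreated, slc24a5 with R848, rag1 with R848). The 8 larval tracing libraries stood between 912 and 2544 CPM, so the sets did not overlap. Crispant mutation, kit version, software version and age at collection also differed between those sets. So did the mix of labels, and some crispants had been given R848. The part of each cannot be told apart.

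Both ligands had sources other than thrombocytes. A larval mesenchymal-like cluster of 273 cells, led by abi3bpb and angptl7, held thbs1b at 1319 CPM, and mesenchymal-like cells as a class held 44.0% of larval thbs1b UMIs against 30.9% in thrombocyte-like cells. Unnamed clusters led by the cartilage genes matn1 and acana held fn1b at 1578 CPM (377 larval cells) and 2313 CPM (4106 crispant cells). Unnamed clusters held 86.2% of the fn1b UMIs of the crispants, while thrombocyte-like cells held 85.3% in kidney marrow and 96.2% in the thymus. The paralogues fn1a and thbs1a were at 1.72 and 0.688 CPM in larval thrombocyte-like cells.

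In the larval tracing set the youngest thrombocyte-like cells had the least fn1b. It was 281 CPM (200.5 to 382) in the 17 cells of the early label at 2 dpf, and 832 CPM (761 to 908) in the mid label at 3 dpf. At 4 dpf the late label had 1370 CPM (1194 to 1565), and at 6 and 10 dpf all libraries stood between 1669 and 2445 CPM. Within this set the levels of the first days did not overlap those at 6 and 10 dpf. Other sets did overlap them, with 1087 to 1372 CPM in the 8 dpf crispants and 1184 CPM in early-labelled kidney marrow. From 3 to 6 dpf in the mid label the log2 ratio was 1.11 (0.95 to 1.28), and from 4 to 6 dpf in the late label it was 0.36. In the joint class fn1b was 22.1 CPM at 2 dpf (65 cells), 36.5 CPM at 3 dpf (43 cells) and 171 CPM at 4 dpf (18 cells), and at least 308 CPM in each joint class of at least 50 cells at 6 or 10 dpf. For 6 dpf over 1 day after labelling, the rule was at least 2-fold in 1 direction after both the mid and the late label. By this rule 0 of the 10 genes were counted, beside 0.892% of 1009 features. The early label, with 17 thrombocyte-like cells at 2 dpf, was not part of that comparison.

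The clotting factors were f5 (factor V, the cofactor that speeds thrombin formation) and f13a1b (factor XIII A, the transglutaminase that crosslinks fibrin). In thrombocyte-like cells f5 ranged from 74.4 to 2255 CPM (median 1438 CPM) and f13a1b from 42.2 to 1298 CPM (median 755.5 CPM). Both were lowest in the early label of kidney marrow. The paralogue f13a1a.1 was at 0 in larval thrombocyte-like cells.

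Myeloid cells were among the other sources of f5, with the joint class (15.3% of larval UMIs) and unnamed cells (61.4% of 303 intestinal UMIs). Neutrophil-like cells held 21.2% of larval f5 UMIs, 32.1% in the crispants, 57.6% in kidney marrow and 78.9% in the thymus. Their level was 15.96 CPM in the late thymus and 406 CPM in the early thymus, the ends of the range over 14 libraries, with a median of 101 CPM. In larvae neutrophil-like f5 was lower after the mid than after the late label at both ages: 20.2 against 119 CPM at 6 dpf and 50.9 against 380 CPM at 10 dpf, where 6.05% of 2644 features were lower. At 6 dpf a cluster with lyz among its leading genes held 82.1% and 53.3% of them. At 10 dpf another cluster, led by lect2l and mpx and 71.7% from the late 10 dpf library, held 68.6% and 90.9%. Its f5 level was 337 CPM against 39.6 CPM in the former.

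Sources of f13a1b were spread widest. Thrombocyte-like cells held 22.2% of its larval UMIs, unnamed cells 24.0%, HSPC-like cells 16.4% and macrophage-like cells 11.1%. The unnamed larval cluster of 377 cells led by matn1 and acana stood at 1588 CPM, above the 968 CPM of larval thrombocyte-like cells. Macrophage-like cells had between 6.84 and 77.7 CPM in 17 libraries. In HSPC-like cells f13a1b was higher 1 day after labelling than later: 116 CPM at 3 dpf against 28.6 CPM at 6 dpf in the mid label, and 122 CPM at 4 dpf against 36.4 CPM at 6 dpf in the late label. It was the only one of the 10 genes counted lower in that class and comparison, where 1.66% of 7065 features were lower. In the late label, HSPC-like cells at 4 dpf also held erythroid markers at 4040 CPM, neural markers at 678 CPM and hepatocyte markers at 315 CPM, against 164, 3.43 and 0.606 CPM at 6 dpf. In the mid label these sums were 538, 8.73 and 0.397 CPM at 3 dpf and 255, 2.50 and 38.0 CPM at 6 dpf; their part was not tested.

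The selectin gene sele encodes E-selectin, known in mammals as a leukocyte adhesion molecule of activated endothelium. In thrombocyte-like cells it ranged from 1074 CPM (late label, kidney marrow) to 3429 CPM (late label, thymus), with a median of 1847 CPM, and it was 5.46 CPM pooled in HSPC-like cells. Endothelial-like cells had 134 to 949.9 CPM in 9 libraries, with a median of 594 CPM. Thrombocyte-like cells held 42.5% of larval and 45.3% of crispant sele UMIs, and endothelial-like cells 36.0% and 48.9%. At 1000 UMIs a sele UMI was found in 59.6% to 75.2% of larval thrombocyte-like cells, 12.8% to 33.3% of larval endothelial-like cells and 0% of larval T-lineage-like cells. Unthinned, these were 77.8% to 89.3%, 15.5% to 64.4% and at most 0.266%. The 2 features named selp, P-selectin, stood at 5.85 and 8.94 CPM in larval thrombocyte-like cells.

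**Figure D3:**
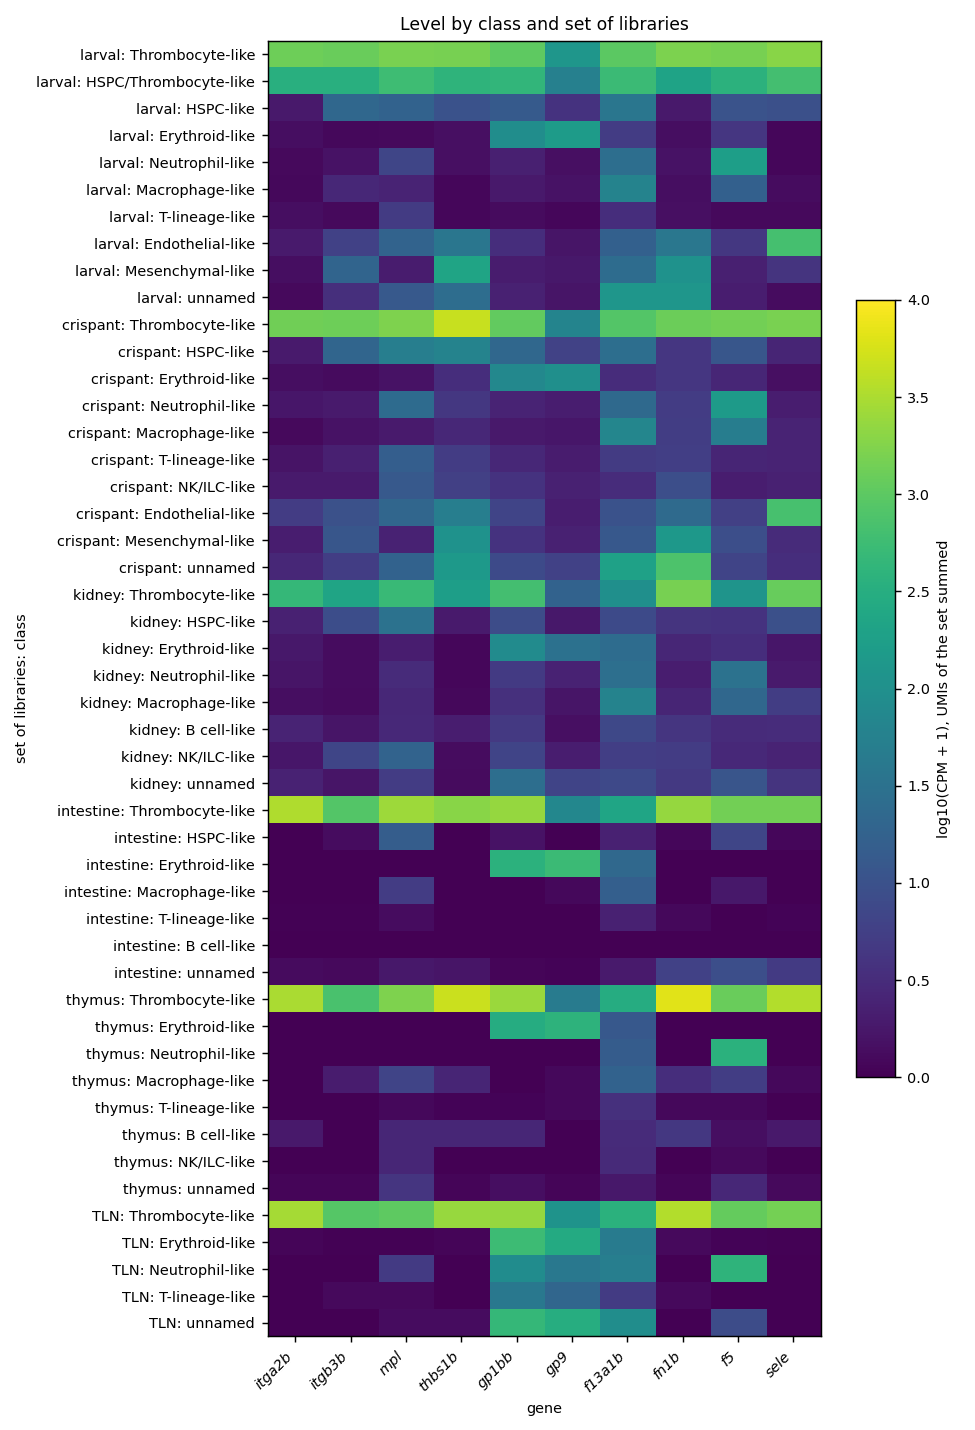
Level of each gene (columns) in each class of at least 30 cells in each set of libraries (rows), as log10(CPM + 1) of the UMIs summed over the set. Thrombocyte-like rows are bright in most columns and dimmest in gp9, which was 13.6 and 27.1 CPM in the early and late kidney marrow libraries. The genes gp1bb and gp9 are also bright in erythroid-like rows, f5 in neutrophil-like rows and sele in endothelial-like rows. So are thbs1b in the larval mesenchymal-like row and fn1b in the unnamed crispant row.

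In the joint HSPC and thrombocyte cluster all 10 genes stood between their levels in larval HSPC-like and thrombocyte-like cells. There itga2b was 332 CPM, mpl 570.2 CPM, gp1bb 423 CPM and sele 642 CPM, against 1296, 1555, 1027 and 1974 CPM in the larval thrombocyte-like cluster. In this joint class sele was higher at 10 than at 6 dpf after both labels with enough cells, 1062 against 363 CPM after the mid and 870 against 417 CPM after the late label. It was the only one of the 10 genes counted higher there, beside 1.26% of 633 features.

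Most thrombocyte-like cells showed many of the 10 genes at once. Thinned to 1000 UMIs, a cell had a mean of 6.20 of the 10 genes in the median library, from 3.03 (early label, kidney marrow) to 6.54 (late label, thymus). Across the larval tracing set the means were 5.67 to 6.37, and in the crispants 6.20 to 6.49. In comparison the means per library were 2.42 to 3.80 in the joint cluster and at most 0.256 in HSPC-like cells. The ends of the joint range rest on 43 cells (mid label, 3 dpf) and 5 cells (early label, 6 dpf). Erythroid-like cells had at most 0.807, the value of the early TLN library.

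Within thrombocyte-like cells, pairs of genes were found together little more often than by independent detection. The phi coefficient, which is 0 for independent detection, had a median over 15 libraries between -0.038 (itgb3b with gp9) and 0.156 (fn1b with f5) for the 45 pairs. For itga2b with itgb3b, the subunits of 1 receptor, the median was 0.054 and 44.7% of cells had both. For gp1bb with gp9 it was 0.027 and 5.79% had both. Values of phi from -0.281 to 0.362 occurred in single libraries.

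Cells with a UMI of at least 3 of the 10 genes were not mostly thrombocyte-like in every tissue. Of the cells that had this without thinning, thrombocyte-like cells were 68 of 69 in the thymus and 83.6% of 55 in the intestine, but 49.6% of 2374 in the larval set, 31.7% of 3863 in the crispants and 44.8% of 953 in kidney marrow. In the TLN 93.8% of 1110 such cells were erythroid-like and 3.06% were thrombocyte-like. That tissue held 40824 erythroid-like and 34 thrombocyte-like cells in all. At least 3 of the genes were found in 3.06% (early) and 2.00% (late label) of its erythroid-like cells, and in 100% of its thrombocyte-like cells. Thinned to 1000 UMIs, the erythroid-like shares were 0.561% and 0.579%. In the crispants unnamed cells, to which the clusters led by matn1 and acana belong, were 39.1%.

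**Figure D4:**
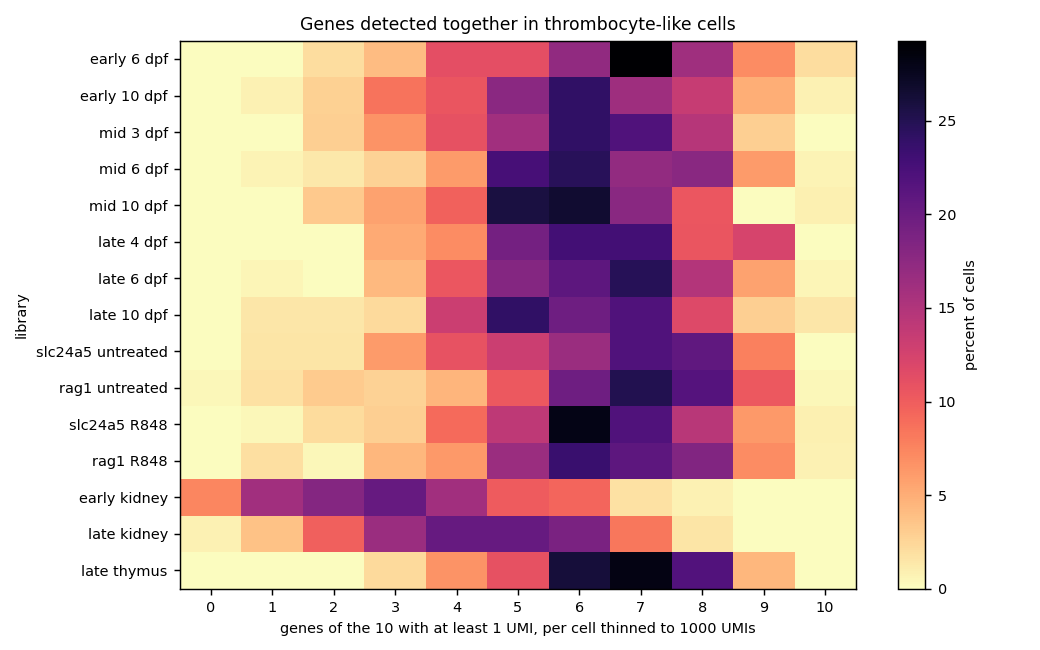
Percent of thrombocyte-like cells (colour) by the number of the 10 genes with at least 1 UMI in the cell (horizontal), after thinning each cell to 1000 UMIs, in the 15 libraries with at least 50 such cells (rows). The early kidney marrow library peaks at fewer genes per cell, with a mean of 3.03, than the larval libraries, with means of 5.67 to 6.37.

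The first comparison asked whether thrombocyte-like cells that descend from early-labelled and late-labelled HSPCs carry these transcripts at different levels. In larvae, 0 of the 9 genes with enough UMIs differed at least 2-fold in 1 direction at 6 and 10 dpf, beside 1.07% of 839 features. At 6 dpf the differences past counting error with the greatest size were in f5, 2255 CPM after the early and 1293 CPM after the late label (log2 ratio 0.80, 0.63 to 0.98), gp1bb, 833 and 1254 CPM (-0.59, -0.83 to -0.36), and gp9, 80.2 and 166 CPM (-1.0, -1.83 to -0.32). At 10 dpf the same 3 log2 ratios were 0.16, -0.12 and 0.11, with intervals that held 0. At 10 dpf sele stood at 1704 CPM after the early, 2443 CPM after the mid and 3413 CPM after the late label. Its log2 ratio of early to late was -1.0 (-1.16 to -0.85), whereas at 6 dpf the labels stood at 1876, 1914 and 1890 CPM.

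The mid label gave like counts: 0 of 9 genes for early over mid label, beside 0.221% of 906 features, and 0 of 9 for mid over late label, beside 1.56% of 835 features. Software version and late label cannot be told apart in larvae, since the late libraries alone were counted with an older release. In the late library at 10 dpf the summed neutrophil markers in thrombocyte-like cells were 852 CPM, with 10 of 10 above 0, against 57.8 CPM (4 of 10) after the early and 185 CPM (7 of 10) after the mid label; their part in the sele level was not tested. The level of sele in neutrophil-like cells did not pass 2.26 CPM in any library.

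Between 6 and 10 dpf, 0 of 9 genes differed at least 2-fold in 1 direction after all 3 labels, beside 0.976% of 820 features. After each label f13a1b was lower at 10 dpf, 1246 against 708 CPM (early), 826 against 498 CPM (mid) and 961 against 755.5 CPM (late), with log2 ratios of -0.81, -0.72 and -0.34. So was thbs1b, with log2 ratios of -0.64, -0.29 and -0.89. All 6 intervals lay under 0, and the medians over all features tested were -0.08, -0.14 and -0.05 in the same order of labels. In contrast sele was higher at 10 dpf after the late (0.85) and mid label (0.35) and not after the early label (-0.14, -0.31 to 0.04).

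In the crispants the question was whether R848 or loss of rag1 changed these transcripts. Of the 9 genes with enough UMIs, 0 differed at least 2-fold in 1 direction with R848 across the genotypes, beside 0.683% of 2197 features. The shift with the greatest size in both was in sele, from 1328 to 2114 CPM in slc24a5 crispants (log2 ratio 0.67, 0.55 to 0.79) and from 1118 to 1847 CPM in rag1 crispants (0.72, 0.60 to 0.85). In endothelial-like cells sele was also higher with R848, 569 to 908 CPM and 476 to 949.9 CPM (log2 ratios 0.67 and 0.99), under 2-fold in both; 1.22% of 3950 features were counted higher there. The level of f13a1b in thrombocyte-like cells was lower with R848, 954 to 646 CPM and 974 to 752 CPM, with log2 ratios of -0.56 and -0.37. That of mpl was lower too, with log2 ratios of -0.18 and -0.32.

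The summed macrophage markers in the same thrombocyte-like cells were 44.2 CPM (6 of 12 above 0) untreated and 363 CPM (10 of 12) with R848 in slc24a5 crispants. In rag1 crispants they were 31.5 CPM (4 of 12) and 152 CPM (6 of 12). Neutrophil markers were 495.5 CPM (10 of 10) and 928.5 CPM (10 of 10) in slc24a5 crispants, and 222 CPM (9 of 10) and 420.5 CPM (10 of 10) in rag1 crispants. Their part in these shifts was not tested; sele did not pass 1.45 CPM in macrophage-like cells given R848 and was at most 12.1 CPM in untreated ones.

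Outside the thrombocyte-like class, R848 was compared in HSPC-, erythroid-, endothelial-, macrophage-, neutrophil- and mesenchymal-like cells. Among these, f5 in macrophage-like cells was the one of the 10 genes counted. Unnamed, T-lineage-like, NK/ILC-like and neural-like cells were not compared, and unnamed cells held 86.2% of the crispant fn1b UMIs. The level of f5 in macrophage-like cells went from 8.38 to 52.0 CPM in slc24a5 crispants and from 14.1 to 51.9 CPM in rag1 crispants. In this class 10.1% of 11566 features were counted higher. The class held 189 cells untreated and 1916 with R848 in slc24a5 crispants, and 198 and 1195 in rag1 crispants. The part of a change in the make-up of the class was not tested. In HSPC-like cells mpl was lower with R848, 56.0 to 30.7 CPM and 78.6 to 31.0 CPM, with log2 ratios of -0.77 and -1.21. It missed the count since the slc24a5 pair stayed under 2-fold, and 0.0804% of 8702 features were counted lower there. In the same HSPC-like sums macrophage markers were 46.7 CPM untreated and 204 CPM with R848 (slc24a5) and 45.8 and 139 CPM (rag1). Neutrophil markers were 303 and 591 CPM, and 270.3 and 542 CPM; the part of both was not tested. Between rag1 and slc24a5 crispants, 0 of 9 genes were counted in thrombocyte-like cells, beside 0.341% of 2052 features, and all 18 log2 ratios of these genes lay between -0.43 and 0.27.

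**Figure D5:**
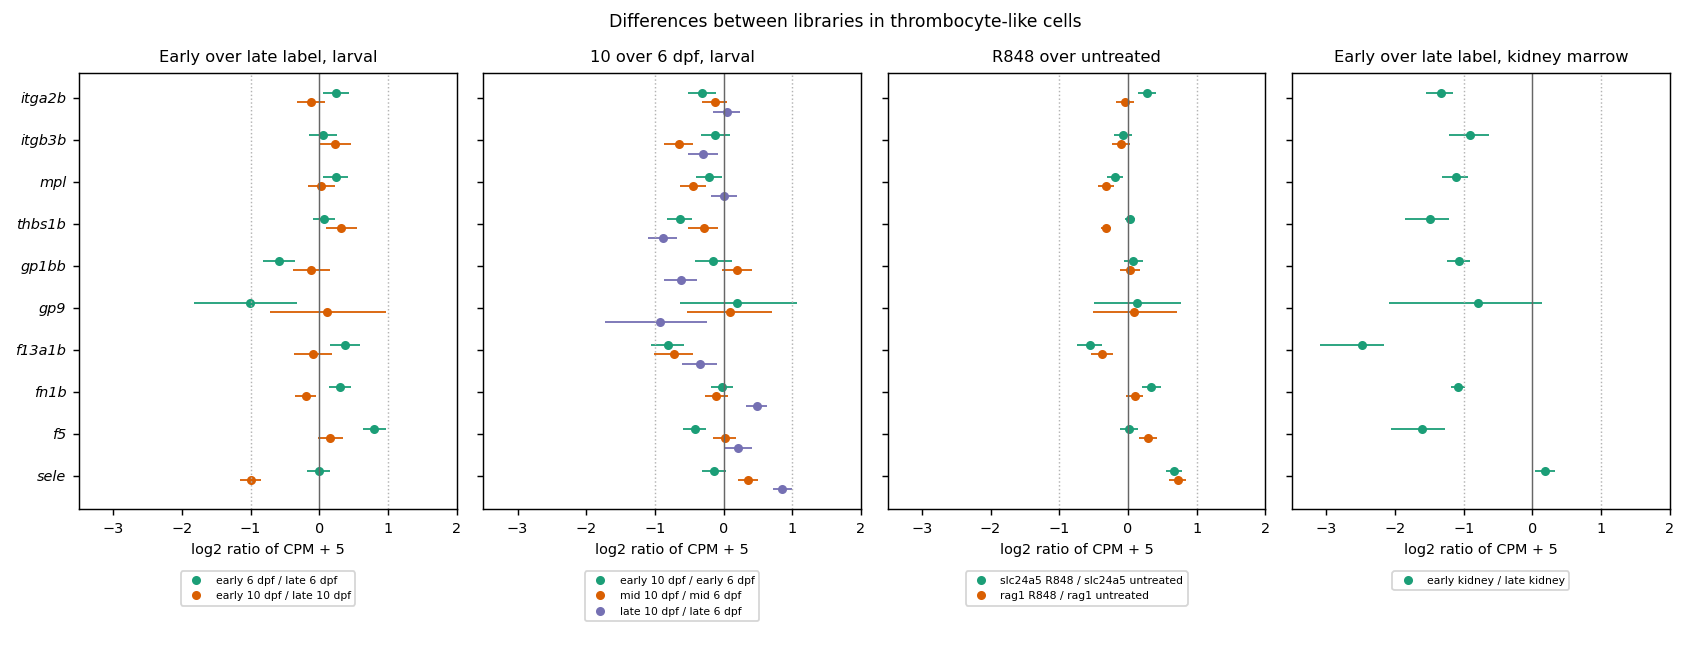
Log2 ratio of CPM + 5 in thrombocyte-like cells for each gene in 4 comparisons, 1 colour per pair of libraries; horizontal lines are counting intervals of the ratio of CPM and dotted lines mark 2-fold. Ratios lie within 2-fold in the R848 panel, and 7 genes lie beyond 2-fold on the low side in kidney marrow.

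In adult kidney marrow the early label stood below the late label, in cells whose name is the least secure. Their neutrophil markers (8988 CPM early, 12625 CPM late) and erythroid markers (8316 and 19847 CPM) summed to more than their thrombocyte markers (5749 and 6863 CPM) in both libraries. Of the 9 genes with at least 50 UMIs, 7 were at 2-fold or more lower in the early-labelled thrombocyte-like cells, beside 5.45% of 2769 features. The 308 early-labelled and 139 late-labelled cells had itga2b at 334 and 851 CPM, f13a1b at 42.2 and 259 CPM, f5 at 74.4 and 236 CPM, and thbs1b at 118 and 342 CPM. Their log2 ratios were -1.34 (-1.54 to -1.15), -2.48 (-3.09 to -2.16), -1.60 (-2.06 to -1.27) and -1.50 (-1.86 to -1.21). For mpl, gp1bb and fn1b the log2 ratios were -1.12, -1.07 and -1.08, just past 2-fold, and for itgb3b it was -0.91. The exception was sele, at 1216 and 1074 CPM (0.18, 0.04 to 0.32). In kidney marrow macrophage-like cells f5 was also lower after the early label, at 12.51 against 38.7 CPM, where 1.9% of features were counted lower.

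Scaling by the median of ratios, which moves all features by 0.21, left 4 of these 7 genes counted, with mpl at -0.91, gp1bb at -0.87 and fn1b at -0.87. Keeping all suspected doublets also left 4. When cells were instead called by at least 3 of the 10 genes, whatever their cluster, the direction turned for 6 of the 7: itga2b then had a log2 ratio of 1.01 and fn1b of 1.22. That call took in erythroid-like cells, which were 54.5% of the 505 late-labelled and 13.6% of the 448 early-labelled cells.

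The kidney marrow cells also differed from larval thrombocyte-like cells in the levels of most of the 10 genes. The summed level of the 10 genes was 4046 and 7539 CPM against 11706 to 15038 CPM in larval libraries with at least 50 such cells. Single thrombocyte markers differed in both directions: fermt3b (1004 and 1442 CPM) and nfe2 (112 and 175 CPM) lay under all of these libraries, and hbegfb (2389 and 2643 CPM) lay above them. The levels of itga2b, itgb3b, mpl, thbs1b, gp9, f5 and f13a1b lay under all values of larval libraries with at least 50 such cells. In contrast fn1b (1184 and 2510 CPM) overlapped its range of 832 to 2445 CPM in larval libraries with at least 50 such cells. So did gp1bb (490 and 1037 CPM), with a range of 751 to 1541 CPM. The level of sele (1216 and 1074 CPM) was below its range of 1623 to 3413 CPM there. It overlapped that of the crispants, which ran from 1118 CPM (untreated rag1) to 2114 CPM (slc24a5 with R848). Tissue, age, kit version and software version also differed between kidney marrow and the larval set. The part of each cannot be told apart. In kidney marrow haemoglobin was 8115 CPM in the early and 19324 CPM in the late label, and all 10 neutrophil markers were above 0 in both. Larval thrombocyte-like cells had at most 3416 CPM of haemoglobin and 852 CPM of neutrophil markers. Both were higher in the late label, and their part in the lower levels of the early label was not tested.

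In the other adult tissues thrombocyte-like cells were few. The 67 cells of the late thymus had itga2b at 3079 CPM, gp1bb at 2542 CPM and fn1b at 6636 CPM, each above every other library with at least 50 cells. They had thbs1b at 4805 CPM and sele at 3429 CPM, close to the 3413 CPM of sele in the late label at 10 dpf. Early-labelled thymus held 2 such cells. The 38 early-labelled intestinal cells had itga2b at 3103 CPM and the 29 of the early TLN 2555 CPM, while f13a1b was 70.5 CPM (14.5 to 206, 3 UMIs) and 231 CPM (135 to 370, 17 UMIs) there and 303 CPM in the late thymus. The early TLN sum also held haemoglobin at 59781 CPM and erythroid markers at 61644 CPM (13 of 18 above 0) beside thrombocyte markers at 8958 CPM; their part in these levels was not tested. In the late label the intestine gave 8 cells and the TLN 5, too few for a comparison of labels, with f13a1b at 654 CPM (10 UMIs) and 929 CPM (15 UMIs), inside its larval range.

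Other genes of thrombocyte biology followed the same contrast between thrombocyte-like and HSPC-like cells in part. Some of them, among them fermt3b and itgb3a, were also thrombocyte markers used to name the clusters. Their contrast was thus partly set by the naming, and the counts below give no support to the cell names. Over all features tested, 17.2% were counted higher and 6.8% lower. Of 18 adhesion features 9 could be tested, and 5 were higher and 0 lower in thrombocyte-like cells, among them itga2.2 (a collagen receptor alpha chain) at 198 against 0.462 CPM, itgav at 139 against 17.0 CPM and itgb3a at 14.9 against 0.112 CPM in the median library. Of 11 agonist receptor features 5 were tested and 3 were higher, namely f2r (a thrombin receptor) at 177 against 3.13 CPM, adra2a at 112 against 0.278 CPM and f2rl2 at 80.1 against 1.36 CPM. Of 22 signalling and granule features 19 were tested, with 10 higher and 1 lower. The largest ratios were those of tln1 (talin, 2540 against 120 CPM), btk (864 against 57.9 CPM) and fermt3b (1701 against 134 CPM).

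Plasma coagulation genes were mostly under the limit: 2 of 23 features could be tested. The inhibitor gene tfpia was higher, at 968 against 2.60 CPM (log2 ratio 6.92), and f3b stood at 60.0 against 3.89 CPM without being counted, since it was not above 0 in every library. Of 15 transcription factor features 14 were tested, with 9 higher and 1 lower. The 3 largest ratios were those of gata1a (185 against 3.75 CPM), meis1b (920.5 against 53.8 CPM) and zfpm1 (787 against 52.1 CPM). In none of the larval or crispant comparisons of labels, ages, treatment or genotype was a gene of these 5 lists counted in thrombocyte-like cells. In kidney marrow 2 of 4 adhesion features tested were lower in the early label, itga2.2 (log2 ratio -2.06) and itgb3a (-1.25), beside 5.45% of all features tested. In the other 4 lists 0 were lower, of 2, 8, 1 and 10 tested (agonist receptors, signalling, plasma coagulation, transcription factors).

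Over 166 sums of a library and class with at least 50 cells, the genes whose log2 level was most like that of each of the 10 among 19698 were as follows, with Pearson's r as a description over sums that share libraries. For itga2b they included g6fl (0.988) and cdkn2c (0.957). For itgb3b they were angpt1 (0.954), g6fl (0.954) and itga2b (0.948), and for mpl g6fl (0.933), itgb3b (0.930) and itga2b (0.930). The glycoprotein genes differed from these: gp1bb was nearest to gata1a (0.970), adss1 (0.941) and gfi1b (0.936), and gp9 to adss1 (0.927), gata1a (0.913) and creg1 (0.911). The ligands thbs1b and fn1b were near each other (0.905), with myl9b (0.914) and lpar1 (0.912) nearest to thbs1b and rock2b (0.892) and lpar1 (0.883) to fn1b. The gene p2ry13 was among the 3 nearest of both clotting factors, at 0.912 for f5 and 0.792 for f13a1b, beside hacd3 (0.863) and g6fl (0.857) for f5 and mtss1 (0.794) and g6fl (0.783) for f13a1b. Genes most like sele were dysf (0.979), myct1b (0.967) and pdgfd (0.962).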

How the data were processed

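Single cells were profiled with 10x Genomics 3′ chemistry, kit v3.1 for larval tracing and v4 for crispants and adults, per the labels' protocols. The authors deposited UMI counts per gene and cell, not normalized, from Cell Ranger 7.1.0 (early and mid larval), 7.0.1 (late larval), 8.0.1 (crispant) and 9.0.0 (adult), per the file headers. The genome build was GRCz11, per the submitters' processing notes. The members and gene lists were chosen with earlier results of these data known, and the thresholds for naming clusters were set after seeing the data.

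Cells with at least 500 UMIs, 200 genes and at most 20% mitochondrial UMIs were kept (200415). Cells with the highest simulated-doublet scores were left out (14528), which left 185887. Each set was clustered without the 10 genes (2000 variable genes, 30 components, Leiden resolution 1.5), and clusters were named from marker lists. Median depth per library was 1112 to 13063.5 UMIs per cell. UMIs were summed per library and class, and compared as log2(CPM + 5). A feature was counted with at least 50 UMIs in the higher library of each pair and at least 2-fold the same way in each pair; for thrombocyte-like over HSPC-like cells, with 50 UMIs in any library, a median of at least 2-fold, and the same direction in all 14. Groups were 1 library each, so there was no test. Intervals were exact Poisson or Clopper-Pearson at 95% and cover counting error only; those of log2 ratios are of CPM without the added 5. Shares of cells were taken after thinning to 1000 UMIs.

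All 10 genes were named, with the 3 genes of largest absolute log2 ratio per pathway list and the 3 most alike by Pearson's r, of which 1 is not reported here. Alternatives changed the pseudocount, fold, scaling, doublet removal, cell filter, thinning and cell call. The sums and ratios were tested on simulated data. Python 3.11.15, numpy 2.4.6, scipy 1.17.1, pandas 2.3.3, igraph 0.11.9 and leidenalg 0.10.2 were used.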

Additional observations from a re-analysis of the deposited data

How the results depend on the processing

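Of 540 values of single genes under the alternatives, 436 moved by less than counting error, 98 moved further and 6 turned direction. Of the 98, calling cells by at least 3 of the 10 genes gave 52, no doublet removal 21, the median of ratios 16, the stricter cell filter 8 and the smaller pseudocount 1. In kidney marrow the count of 7 lower genes was 4 under the median of ratios and 4 without doublet removal. With cells called by at least 3 of the 10 genes, the 6 turned log2 ratios were 1.01 for itga2b, 1.097 for mpl, 0.85 for thbs1b, 0.54 for gp1bb, 1.22 for fn1b and 0.12 for f5. With R848, 1 gene, sele, was counted at a fold of at least 1.5. The median number of genes per thrombocyte-like cell was 3.24 when cells were called by at least 3 of the 10 genes, 4.42 at 500 UMIs and 7.26 without thinning; the last 2 differ in depth by construction, and the cause of the others was not tested. No paired analysis was possible because the groups shared only replicate number 1. Models over label and age, or genotype and R848, were not run. The limit of 50 UMIs affected gp9 most, the gene with the lowest median level: it missed 50 UMIs in at least 1 pair of 7 of the 8 comparisons of thrombocyte-like cells.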
